A study of Drosophila melanogaster with 3 samples.

Results

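The loci of *mol* and *Duox* were described in maps of Blimp-1 binding made by chromatin immunoprecipitation and sequencing (ChIP-seq). Both are protein-coding genes of *Drosophila melanogaster* on chromosome arm 2L, and they are 2 of 13945 such genes in the annotation used. Their peaks were all those with a summit inside the gene or within 10 kb of it. That gave 8 of the 9515 peaks in the authors' reproducible list, with 2 at *mol* and 6 at *Duox*. It also gave 28 of 30000 peaks called on the pooled replicates, and 26, 25 and 28 of 30000 peaks in replicates 1, 2 and 3. The pair was chosen by earlier results on these same peaks, in which peak strength put *mol* first, so the number, rank and signal of its peaks are given as a description and no test was made on them.

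The material was whole embryos, 10 to 12 h old by the name of the source (a separate age label disagrees and holds no plausible age), from 1 transgenic fly line that stably carries Blimp-1 with GFP fused to its C terminus. The precipitation used an antibody against GFP on sonicated chromatin, and 3 biological replicates form the single group, so there is no untagged or mutant group to compare with. Because embryos were used whole, more cells with Blimp-1 at a site and more Blimp-1 per cell cannot be told apart. Peak lists hold no expression values, so neither the cell types present nor the transcript levels of *mol* and *Duox* could be checked, and hydrogen peroxide and cuticle were not measured. The strength of a peak is the authors' signal value, whose scale is not defined in the sources used here, and it ranks peaks within 1 list, with rank 1 the strongest. The reproducible list holds the pooled peaks that passed the authors' threshold on the irreproducible discovery rate (IDR) between replicates, which were the 9515 strongest of the pooled list. The depth of the replicates is unknown.

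*Duox* encodes dual oxidase, a membrane NADPH oxidase that releases hydrogen peroxide outside the cell. Its partner *mol* (*moladietz*) encodes the fly homologue of the DUOXA proteins, which dual oxidase needs to mature and leave the endoplasmic reticulum. Heme peroxidases use the peroxide to cross-link tyrosines in extracellular matrix, and in the fly, dual oxidase is known for stabilising the cuticle of the wing and for defence in the gut. Blimp-1 is a zinc finger transcription factor, homologous to mammalian PRDM1 and mostly known as a repressor, that is induced by ecdysone and is known in embryos for its part in the trachea and the cuticle.

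The sequences under the strongest peak of each gene are shown first, because they hold the short words discussed with the results. They are the + strand of the dm6 build (Release 6), read 5′ to 3′, while both genes lie on the − strand. Capitals mark GAAAGTGA in the *mol* sequence and AGTGAAAG in the *Duox* sequence. The *mol* sequence is chr2L:14995617-14995916, inside intron 1, and the *Duox* sequence is chr2L:2830344-2830643, just upstream of the gene and holding both of its promoter summits.
mol strongest peak: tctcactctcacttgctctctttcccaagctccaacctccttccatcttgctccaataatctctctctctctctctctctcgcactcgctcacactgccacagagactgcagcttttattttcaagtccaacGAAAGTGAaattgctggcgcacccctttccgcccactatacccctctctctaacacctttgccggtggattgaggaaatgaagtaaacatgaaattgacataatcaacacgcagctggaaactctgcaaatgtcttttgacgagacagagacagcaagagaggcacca
Duox promoter peaks: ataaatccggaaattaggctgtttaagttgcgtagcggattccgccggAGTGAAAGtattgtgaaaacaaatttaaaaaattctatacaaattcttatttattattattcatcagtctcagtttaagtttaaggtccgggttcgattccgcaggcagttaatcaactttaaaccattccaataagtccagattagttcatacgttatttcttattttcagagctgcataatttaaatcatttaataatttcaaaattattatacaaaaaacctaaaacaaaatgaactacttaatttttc

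The gene *mol* (FBgn0086711) spans 2L:14975747–14997559 on the − strand and has 5 annotated transcripts that share 1 transcription start site (TSS), at 14997559. Its locus held the strongest Blimp-1 peak of the series and 1 moderate peak at the promoter. The strong peak, 2L:14995356–14996463, was 1108 bp wide, and 160 of the 9515 reproducible peaks were at least as wide, against a median width of 357 bp. Its summit, 14995767, lay 1792 bp downstream of the TSS in intron 1 of all 5 transcripts. Depending on the transcript, that intron was 2678 to 5009 bp long. Coding sequence began 5088 bp from the TSS in 4 transcripts and 19987 bp from it in the other, so the summit lay between the TSS and the coding start in every transcript.

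The signal of the strong *mol* peak was 13167 in replicate 1, 5826 in replicate 2 and 6962 in replicate 3, and it was rank 1 in each (mean rank 1.00, SD 0, n = 3). In each replicate it stood apart from the next strongest peak of the genome, by 1.64, 1.56 and 1.50 times in replicates 1, 2 and 3, and by 1.59 times in the reproducible list, where the signals were 25918 and 16283. The signal falls smoothly with rank below that step, as the plot of signal against rank shows.

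**Figure D1:**
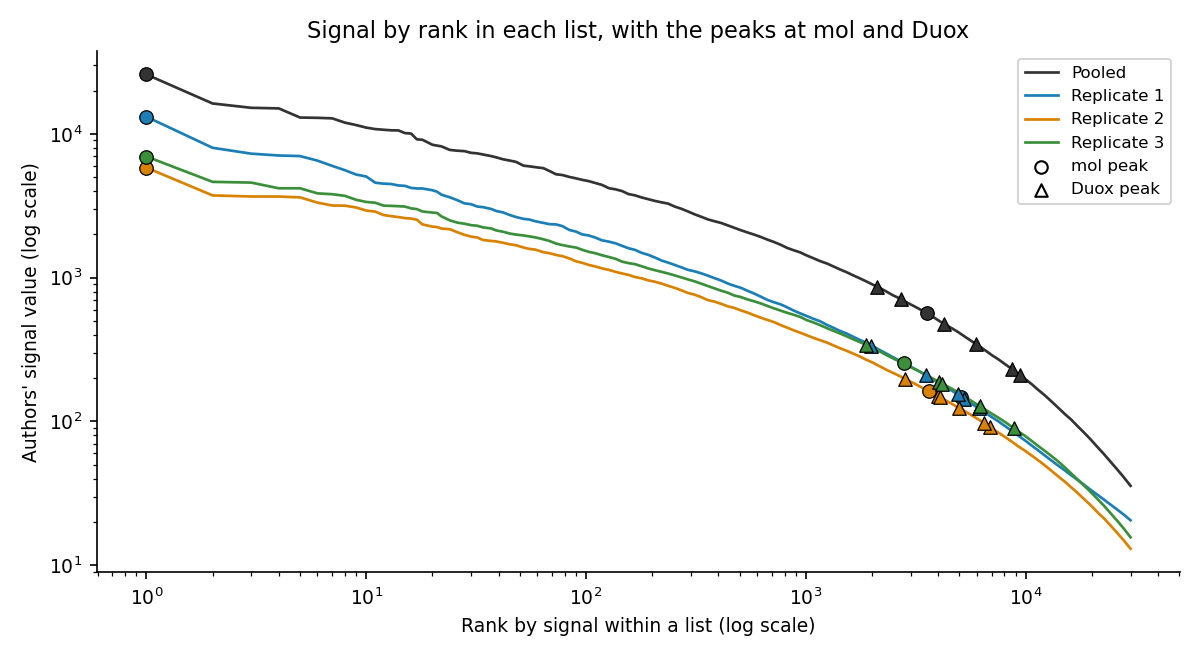
Authors' signal value (log scale, undefined unit) against rank by signal (log scale) in the pooled list and the 3 replicate lists, drawn as lines, with circles for the *mol* peaks and triangles for the *Duox* peaks among the 9515 strongest of each list. A *mol* peak is at rank 1 in every list, and the *Duox* peaks lie between rank 1887 and the end of that range.

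The position of the strong *mol* peak also repeated closely. Its summit was at 14995761, 14995767 and 14995768 in replicates 1, 2 and 3, a range of 7 bp. The median range was 18 bp over the 952 strongest reproducible peaks and 34 bp over the 8698 reproducible peaks that had a summit within 100 bp in all 3 replicates.

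The promoter peak of *mol*, 2L:14997344–14997675, had its summit at 14997520, which is 39 bp downstream of the TSS and in the first, non-coding exon. Its signal was 148 in replicate 1, 163 in replicate 2 and 253 in replicate 3, at ranks 5077, 3615 and 2789 (mean 3827 ± 1159, SD, n = 3). In the reproducible list it had rank 3561 and a signal of 564, a little above the list's median of 433. Its summits in the replicates spanned 11 bp. The 2 *mol* summits were 1753 bp apart, and the intronic one had 46.0 times the signal of the promoter one in the reproducible list, and 89.0, 35.7 and 27.5 times in replicates 1, 2 and 3. Within *mol*, then, the imbalance was smallest in replicate 3 and largest in replicate 1, and in all 3 replicates the intronic peak was at least 27.5 times the promoter peak.

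**Figure D2:**
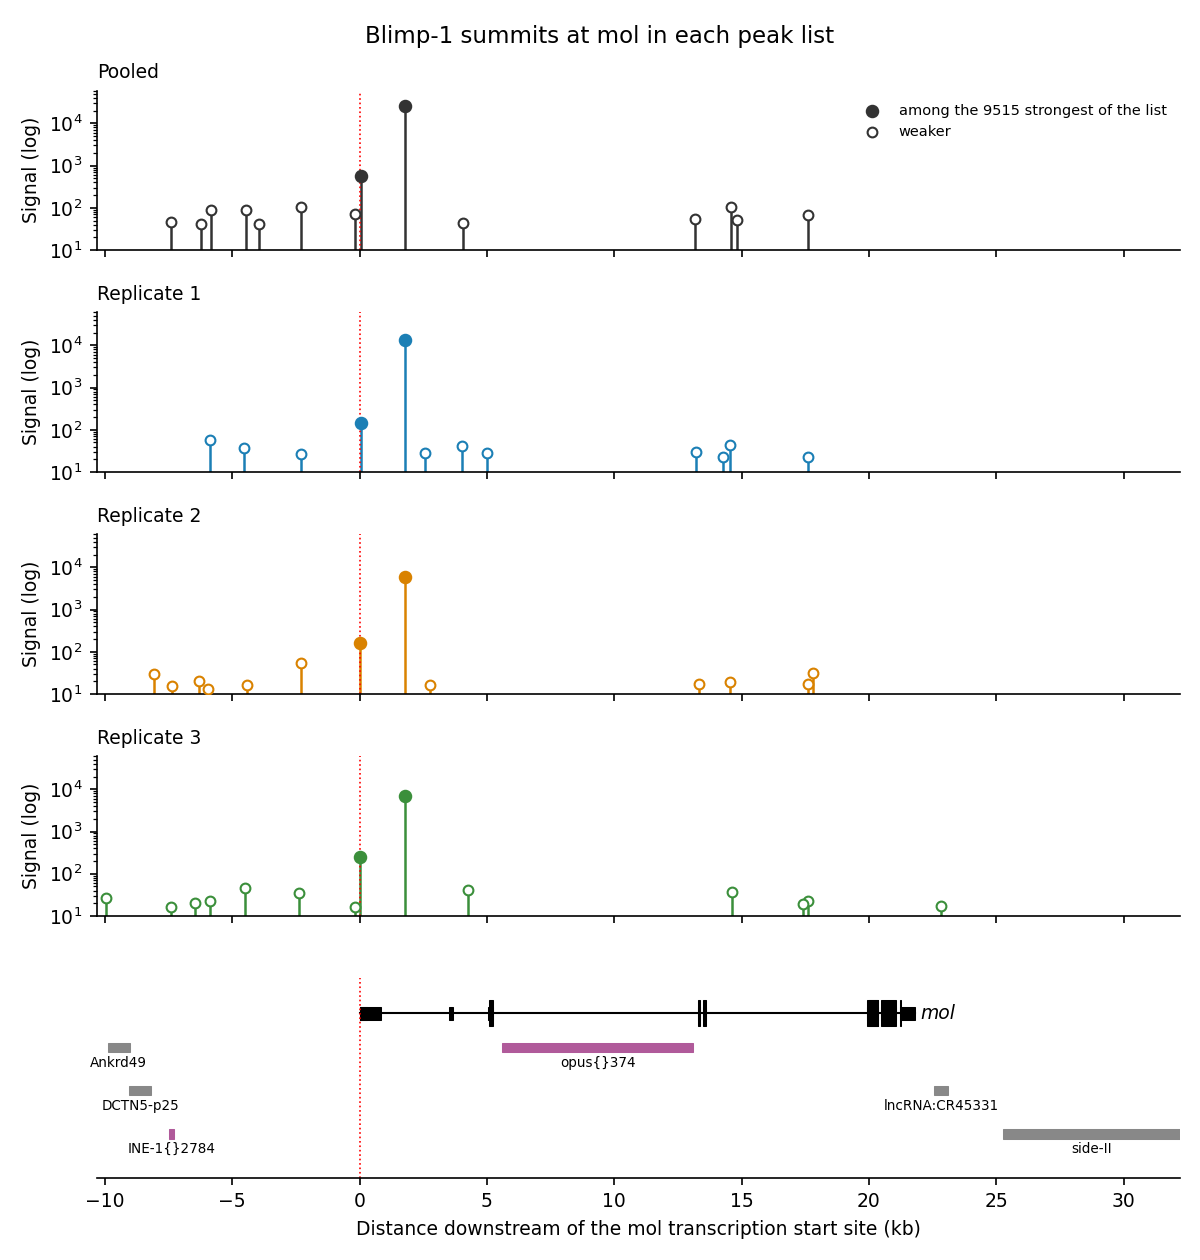
Summits in *mol* and within 10 kb of it in the pooled list and in each replicate, by signal (log scale, undefined unit) and distance downstream of the *mol* TSS in kb (dotted line), above the merged exons of *mol* (tall boxes are coding), other genes (grey) and transposable elements (purple). Filled circles are among the 9515 strongest peaks of their list. The intronic peak, 1792 bp downstream, towers over the promoter peak and over weaker summits with signals of at most 102 in the pooled list.

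*Duox* (FBgn0283531), at 2L:2815970–2830248 on the − strand, has 2 transcripts that share 1 TSS, at 2830248. Blimp-1 peaks there were more numerous and much more even than at *mol*. The 6 reproducible summits fell into 3 pairs, 1 pair just upstream of the TSS, 1 in an intron beside a nested gene and 1 near neighbouring genes upstream. Of all protein-coding genes, 9.16% had 6 or more reproducible summits in the gene or within 10 kb, and 48.9% had 2 or more, the count at *mol*. At least 1 summit was found for 68.7%, and the median was 1. Per 10 kb of the stretch searched, *Duox* had 1.75 summits and *mol* 0.478, against a median of 0.482 over all protein-coding genes. As dense or denser were 14.8% of genes for *Duox* and 51.2% for *mol*. By number, then, *mol* was an ordinary gene, and what set it apart was the strength of 1 peak, which is the value on which it was chosen.

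The promoter of *Duox* carried a 908 bp peak, 2L:2829804–2830711, that covered the TSS and held both summits of the first pair, 209 bp apart. The nearer and stronger summit, 2830389, lay 141 bp upstream of the TSS. Its signal was 337, 198 and 341 in replicates 1, 2 and 3, at ranks 1982, 2814 and 1887 (mean 2228 ± 510, SD, n = 3), and its rank in the reproducible list was 2115. The farther summit, 2830598, lay 350 bp upstream of the TSS, with signals of 209, 149 and 189 at ranks 3522, 4006 and 4032 (mean 3853 ± 287, SD, n = 3). The nearer summit was the stronger of the pair in all 3 replicates, by 1.61, 1.33 and 1.80 times. Replicates 1 and 2 had another summit on the other side of the TSS, 176 and 181 bp downstream at ranks 5235 and 4990, with signals of 144 and 124. Replicate 3 and the pooled list had none there.

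The intronic pair of *Duox* was the weakest of the 8 peaks and the most widely spread between replicates. It lies around the start of *CG3123*, a gene nested in intron 2 of *Duox*, which is 6277 bp long and is read from the same strand. The summit at 2825637 was 4611 bp downstream of the *Duox* TSS and 131 bp upstream of that of *CG3123*. Its signal was 59.1 in replicate 2, 46.3 in replicate 3 and between these in replicate 1, at ranks 13886, 10465 and 15434 in replicates 1, 2 and 3 (mean 13262 ± 2543, SD, n = 3), and its summits in the replicates spanned 115 bp. With rank 9417 and a signal of 211 it was close to the lower end of the reproducible list, which ends at 208, and the strongest pooled peak of the locus that missed the threshold had a signal of 158. The summit at 2825365, in a coding exon of *CG3123*, had rank 8701. It was matched at rank 9721 in replicate 1 and rank 6876 in replicate 2, while in replicate 3 the nearest summit was 155 bp away, at rank 8827.

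The upstream pair of *Duox* lay nearer to the start sites of other genes. The summit at 2838238, which was 7990 bp upstream of the *Duox* TSS, was 173 bp upstream of the TSS of *Cpr23B*, a cuticle protein gene. Its signal was 154, 147 and 183 at ranks 4908, 4065 and 4178 in replicates 1, 2 and 3 (mean 4384 ± 458, SD, n = 3), and its summits spanned 9 bp. The summit at 2836945, 6697 bp upstream, lay in an intron of *CG3119*, with signals of 123, 97.1 and 127 at ranks 6142, 6479 and 6217 (mean 6279 ± 177, SD, n = 3). Distance alone does not tell which gene a peak serves, and only the promoter pair had *Duox* as the gene with the nearest TSS.

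**Figure D3:**
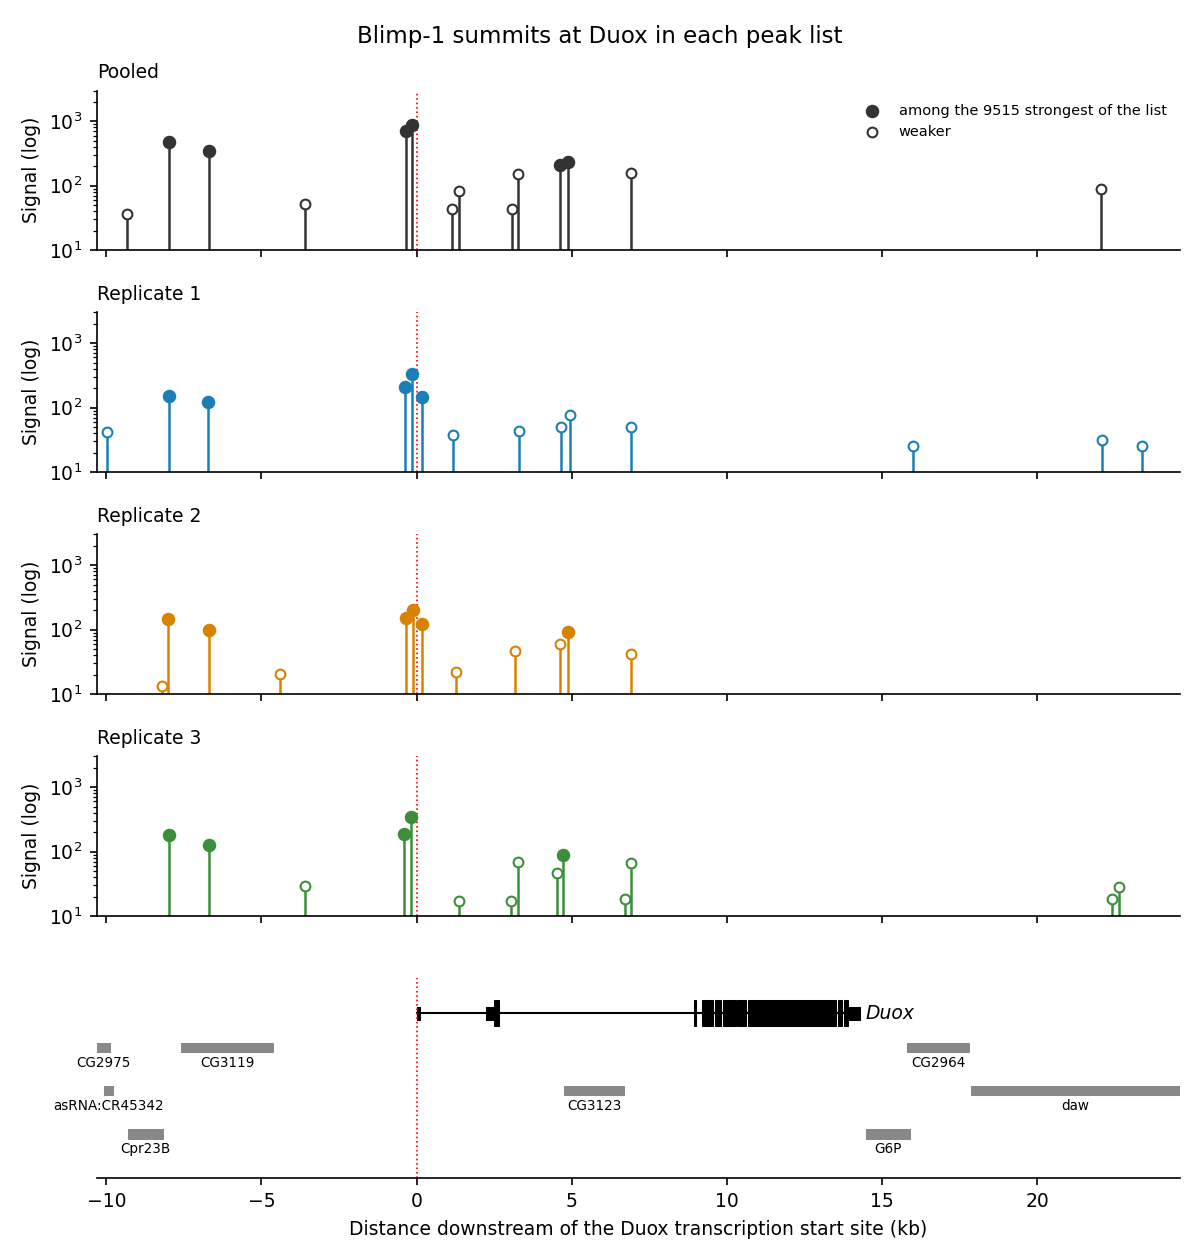
Summits in *Duox* and within 10 kb of it, drawn as for *mol*, with signal on a log scale and distance downstream of the *Duox* TSS in kb. Filled circles are among the 9515 strongest of their list. The pair upstream of the TSS is highest in every list (865 and 707 in the pooled list), and replicates 1 and 2 show an additional filled summit just downstream of the TSS.

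Of the 8 reproducible peaks, both *mol* peaks and 5 of 6 *Duox* peaks had a summit within 100 bp in all 3 replicates, against 91.4% of all reproducible peaks. The authors' threshold rests on agreement between replicates, and the peaks that passed it were the strongest of the pooled list. High counts here are thus in part built into the list. With only each replicate's 9515 strongest peaks, *mol* had 2 summits in each, and *Duox* had 5, 6 and 5 in replicates 1, 2 and 3. Not all of these *Duox* summits match a reproducible peak. Replicates 1 and 2 include the summit just downstream of the TSS, and replicate 3 the unmatched summit at rank 8827. Both *mol* peaks and 4 of the 6 *Duox* peaks were matched among the strongest of all 3 replicates. The share of all reproducible peaks matched at that stricter setting was not computed, and the 91.4% is for the full lists. Below the threshold, the pooled list held 12 further summits at *mol*, with signals between 41.0 and 102, and 8 at *Duox*, with signals between 36.2 and 158. Of these, 4 at *mol* and 2 at *Duox* were matched in all 3 replicates, against 27.2% of all pooled peaks below the threshold.

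**Figure D4:**
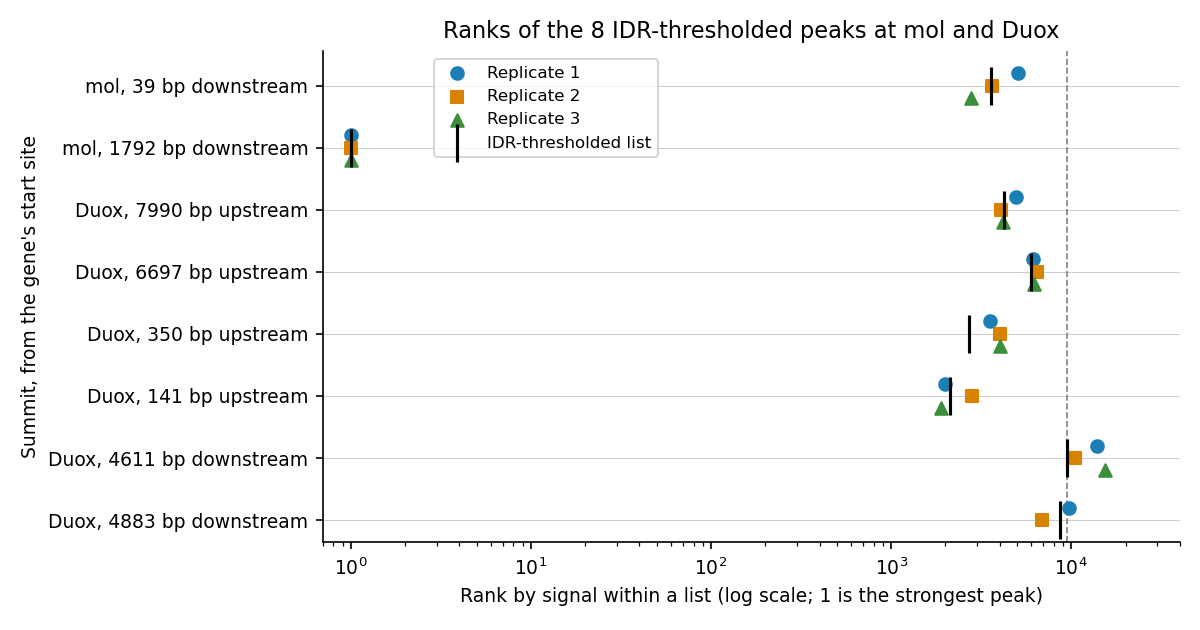
Rank by signal (log scale, 1 is the strongest) of the 8 reproducible peaks in replicates 1, 2 and 3 (symbols) and in the reproducible list (black bars), with peaks named by the distance of the summit from the gene's TSS and a dashed line at rank 9515. The *mol* peak 1792 bp downstream is at rank 1 in every list, and the *Duox* peak 4611 bp downstream is right of the dashed line in all 3 replicates.

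Sequence took no part in the choice of the genes. The word searched as a Blimp-1 site was AGYGAAAG, with Y for C or T, on both strands within 50 bp of a summit. It was found at 2 of the 8 summits, both at *Duox*, against 6.31% of all reproducible summits. In windows of the same width 500 bp to the right of all summits the share was 0.956%. At the stronger promoter summit of *Duox* the word was AGTGAAAG, at 2830392–2830399, 3 to 10 bp to the right of the summit. The summits of replicates 1, 2 and 3 were 5, 18 and 30 bp from it. The other promoter summit, 350 bp upstream of the TSS, had no copy within 50 bp, and 18.8% of its window was G or C, against a median of 34.7% over all reproducible summits.

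Both summits around *CG3123* also had a copy nearby, AGCGAAAG in each case. In the window of the upstream summit it is read from the − strand, so that the + strand shows CTTTCGCT, 32 to 39 bp to the right of the summit at 2825669–2825676. In the peak in the coding exon it is at 2825305–2825312, 53 to 60 bp to the left of the summit and so just outside the window. The nearest summit fell inside that word in replicate 1 (2825307), and was 51 bp from it in replicate 2 and 208 bp from it in replicate 3. For the copy upstream of *CG3123* the distances were 63, 32 and 45 bp in replicates 1, 2 and 3, so in replicate 1 it too was outside 50 bp. The *CG3123* pair is thus the weakest of the locus, and each of its peaks holds the word. The peak near *Cpr23B* held only the shorter word GAAAGT, 26 to 31 bp to the right of its summit. GAAAGT within 50 bp was found at 4 of the 8 summits, against 19.4% of all reproducible summits and 6.86% of their flanks. Except near *Cpr23B*, it overlapped a copy of AGYGAAAG or GAAAGTGA at these summits, so those sites are counted again. The windows are shown to compare the 3 words in place, in capitals, on the + strand of dm6, and they are chr2L:2825587-2825687 upstream of *CG3123*, chr2L:2825295-2825322 in its exon and chr2L:2838188-2838288 near *Cpr23B*.
Upstream of CG3123: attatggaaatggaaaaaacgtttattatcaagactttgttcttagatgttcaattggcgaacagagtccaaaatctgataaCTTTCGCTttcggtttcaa
CG3123 exon: cagggcgtaaAGCGAAAGtggtttcgtc
Near Cpr23B: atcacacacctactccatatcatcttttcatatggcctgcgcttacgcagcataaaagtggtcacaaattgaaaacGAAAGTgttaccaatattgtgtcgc

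The strongest peak of the genome, at *mol*, had no AGYGAAAG within 50 bp of its summit or elsewhere in its 1108 bp. Its window held GAAAGTGA, a word singled out by earlier results of these data, at 14995749–14995756, 11 to 18 bp to the left of the summit. It shares the letters GAAAG with AGYGAAAG. It also overlaps AGTGAAAT in the printed sequence, which differs from AGTGAAAG in the last base only. The best match to AGYGAAAG in the window thus had 1 mismatch, as at 26.2% of reproducible summits. In replicates 1, 2 and 3 the summit was 5, 11 and 12 bp from GAAAGTGA. GAAAGTGA was at 1 of the 8 summits, against 5.42% of all reproducible summits and 0.515% of their flanks. Among the 952 strongest reproducible peaks, 12.3% had AGYGAAAG and 12.4% had GAAAGTGA. Among the 10 strongest, 2 had AGYGAAAG, 3 had GAAAGTGA, and 5 had at least 1 of the words. The *mol* promoter summit had none of these words.

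The same *mol* sequence holds a 22 bp run of alternating C and T, at 14995676–14995697, 70 to 91 bp to the left of the summit. A run at least that long, on either strand, lay within 150 bp of 19 of the 9515 reproducible summits. The length asked for was that of the *mol* run itself, so this low number is in part built in. It contains GAGAGAGA on the − strand, a word found within 100 bp of 2.60% of reproducible summits. Of the 101 bases around the *mol* summit, 50.5% were G or C, and 52.5% around the promoter summit of *mol*, both above the median of 34.7%.

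The ends of the searched stretch decide which peaks are counted. On the upstream side of *mol*, the first reproducible summit beyond 10 kb was 12308 bp from the gene (rank 2553), with *Rnmt* as the gene with the nearest TSS. On the downstream side of *Duox*, the first one beyond was 11301 bp from the gene (rank 7036) and nearest the TSS of *daw*, which encodes an activin-like ligand. On its upstream side the first one beyond was 25777 bp away, while the last one inside was at 7990 bp. Downstream of the strong *mol* peak, through the rest of the gene and beyond, lay one of the longest stretches of the genome without a reproducible summit. This stretch was 289356 bp, from 14706411 to that peak, of which 269336 bp lay beyond the gene. It was the 7th longest of 9509 intervals between neighbouring summits, whose median was 3961 bp, and 26 protein-coding genes lay wholly inside it. In the pooled list the stretch ran over 267414 bp and was the 6th longest of 29994, and in replicates 1, 2 and 3 it was 147360, 267488 and 268340 bp, so it was shorter in replicate 1.

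Other genes of hydrogen peroxide production, use and removal were examined as a list of 37 genes besides *mol* and *Duox*. Of these, 19 had a reproducible summit within 1 kb of a TSS (51.4%), against 24.9% of all protein-coding genes. With each replicate's 9515 strongest peaks the share was 48.6, 45.9 and 56.8% in replicates 1, 2 and 3 (50.5% ± 5.63, SD, n = 3), against 24.4, 25.9 and 28.2% of all protein-coding genes (26.2% ± 1.91). Within 10 kb of the gene, 31 of the 37 had a summit (83.8%), against 68.7% of all. The list was put together with earlier results of these data known, so its share was not tested. The promoter-proximal peaks of the listed genes were not unusually strong. The median rank of the best such peak was 4010 over the 19 genes, against 3357 over the 3467 protein-coding genes that had one. Peaks farther from the TSS were not compared in this way.

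Among sources of peroxide, *Nox*, the second NADPH oxidase gene of the fly, had a summit 11 bp upstream of its TSS at rank 2246, with ranks 1649, 2181 and 3646 in replicates 1, 2 and 3. That is close to the 2115 of the *Duox* promoter, and the *Nox* summit also held AGYGAAAG within 50 bp. Of the 19 genes, *Nox* and *Itpr* were the 2 whose best summit held it, against 5.54% of the 3467 protein-coding genes with a promoter-proximal summit. Among heme peroxidases, 4 of 9 had a promoter-proximal peak. The strongest was at *CG10211*, 68 bp downstream of the TSS, at rank 190 and at ranks 172, 164 and 263 in the replicates. *CG42331* followed at rank 1556 and *Pxd* at 3416. Farther from its TSS, *CG42331* had a stronger peak, at rank 31, the best within 10 kb of any listed gene besides *mol*. The summit within 1 kb of *Pxt*, at rank 9116, was nearer to the TSS of *osa* and was matched in replicate 1 alone. The gene *cysu*, which encodes a heme peroxidase that acts with dual oxidase in the wing, had no reproducible summit within 10 kb, nor had *CG4009*.

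Among genes listed for the removal of superoxide or peroxide, 9 of 16 had a promoter-proximal peak. The strongest was at the peroxiredoxin gene *Prx3*, 27 bp downstream of its TSS at rank 414 (341, 417 and 580 in the replicates). *Prx6c* had rank 1252, *Prx4* rank 2572, *Sod2*, the mitochondrial superoxide dismutase gene, rank 3165, and the catalase gene *Cat* rank 6478. *Prx6a* at 4010 and *Prx6b* at 5027 had summits nearer to the TSS of another gene, *Sbat* and *CG11825*. The thioredoxin gene *Trx2* had rank 5235 and *Gtpx*, a glutathione peroxidase homologue, rank 6012, the last with no match in replicate 1. *Trxr2* had no reproducible summit within 10 kb.

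Of 10 genes listed for the regulation of *Duox*, 5 had a promoter-proximal peak. The MAP kinase gene *p38a* had the strongest, 132 bp upstream of its TSS at rank 381 (419, 366 and 386 in the replicates). The others were the phospholipase C genes *norpA* at rank 5143 and *Plc21C* at 7215, the kinase gene *Mekk1* at 7062, and the inositol trisphosphate receptor gene *Itpr* at 7721, whose summit held AGYGAAAG. The genes *p38b*, *Atf-2* and *mesh* had no reproducible summit within 10 kb. The gene of the cross-linked protein resilin had none within 1 kb of its TSS. Across the list, 16 of the 19 genes were themselves the gene with the nearest TSS, against 74.7% of the 3467 protein-coding genes with a promoter-proximal summit. Of the 19 summits, 17 were matched in all 3 replicates, against 88.8% over those genes, which is about the same share.

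**Figure D5:**
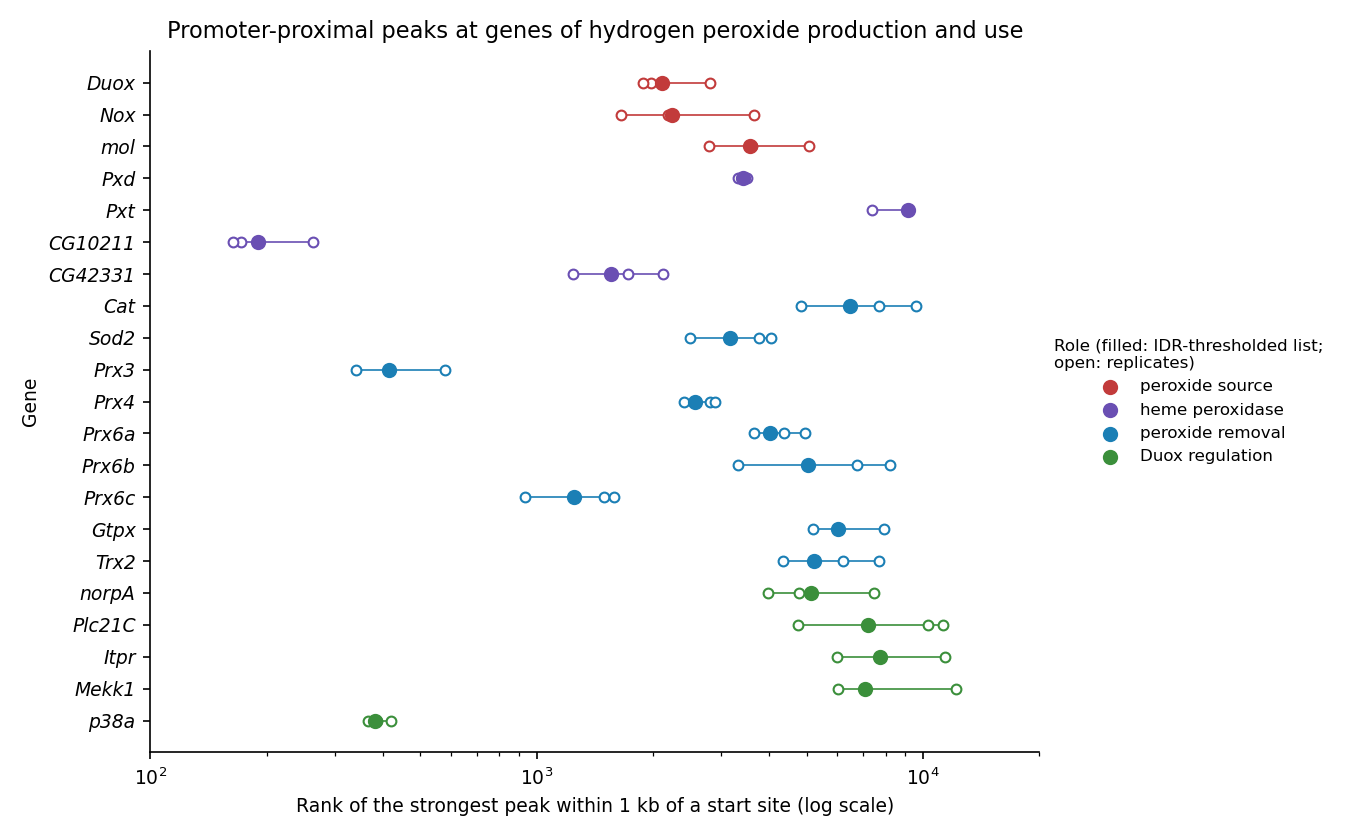
Rank by signal (log scale, 1 is the strongest) of the strongest peak within 1 kb of a TSS at *mol*, *Duox* and the 19 other listed genes that have one, coloured by role, with filled circles for the reproducible list and open circles for the replicates that matched. The role named peroxide removal also takes in superoxide removal (*Sod2*). *CG10211*, *p38a* and *Prx3* (190, 381 and 414) lie left of all others, while *Duox* and *Nox* sit together (2115 and 2246) and the *mol* promoter is at 3561.

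The genes most like each locus were sought over 6813 protein-coding genes with 2 or more reproducible summits, by the distance, in units of SD, over 3 values: the rank of the best summit, the number of summits and the ratio of the second rank to the first, all on log scales. Neighbours that share the strongest peak of *mol* or *Duox* within 10 kb were left out of the search. They were *DCTN5-p25*, with 3 summits, best ranks of 1 and 2553 and a distance of 0.859 from *mol*, and *CG2975*, *CG3119*, *CG3123* and *Cpr23B* beside *Duox*, of which *CG3119* has all 6 of the *Duox* summits within 10 kb. Elsewhere in the genome, *Duox* had close counterparts, *CG14269*, *mRpL45* and *comt*, each with 6 summits and best ranks of 2056, 2209 and 2147, at distances of 0.0574, 0.0603 and 0.0873. *mol* had none so close elsewhere. It was chosen for its peak of rank 1, which enters 2 of the 3 values. Genes that share that peak were left out, so no other gene could have rank 1. The distance of *mol* from other genes is thus in part built into the search. *CG18659*, with 2 summits at ranks 2 and 516, was nearest of the 6811 other genes, at a distance of 2.77, followed by *BtbVII* and *Usp5*, which share their peaks of rank 7 and 2437, at 2.97. The large drop at *mol*, where rank 1 is followed by rank 3561, had no counterpart among these 3 genes.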

How the data were processed

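Whole-embryo ChIP-seq of GFP-tagged Blimp-1 was represented by peak lists only. Per the deposited notes, the build is dm6 and the 3 replicates share 1 control alignment, as does its noise. Neither the aligner nor the peak caller is given in the sources used here, nor is the IDR threshold. The authors deposited a signal value and a −log10 q-value per peak. The signal ranked peaks within a list and the q-value was not used. Depth is unknown. Spread is the SD over 3 biological replicates.

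Coordinates were written 1-based, summits within 100 bp were matched, and gene models came from Ensembl release 115 on the same assembly. Sequence was read from dm6 (Release 6). The functions were tested on simulated data (Python 3.11.15, numpy 2.4.6, pandas 2.3.3, matplotlib 3.10.9). Of 40 listed names, 37 matched by symbol and 3 by an older name, giving 39 genes. The members and lists were chosen with earlier results of these data known, and no p-value was computed. The text names *mol* and *Duox*, genes overlapping the stretches searched, listed genes with a promoter-proximal peak and the 3 genes most like each. Listed genes without any peak within 10 kb, and the genes at the ends of the stretches, were named after their values were seen. Other distances, thresholds, words and replicate sets were tried.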

Additional observations from a re-analysis of the deposited data

How the results depend on the processing

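Of 45 alternative values over 8 results, 35 stayed within 1.5 times the reported count or within 1 SD of the reported mean rank. The widest of these were 4 *Duox* summits within 1 kb of the gene and 3 *mol* summits within 20 kb. Others were 3 summits with a Blimp-1 site within 100 bp (8.51% of all reproducible summits) and 24 listed genes with the pooled list (38.1% of all protein-coding genes). The other 10 moved further. With the pooled list, *mol* and *Duox* had 14 summits each, and with the strongest 4757 reproducible peaks *Duox* had 3 and the peroxide list 10 genes with a promoter-proximal peak (15.9% of all protein-coding genes). The *mol* and *Duox* counts under other distances and lists were not set beside the same counts over all protein-coding genes. Within 10 kb of the gene, 31 listed genes had a summit. The number of summits with a Blimp-1 site, 2 of 8, was 1 with AGTGAAAG alone, against 4.18% of all reproducible summits. It was also 1 with those strongest peaks, which include 2 summits at *mol* and 3 at *Duox*. The share over all of the strongest peaks was not computed. With words and windows added after the data had been seen, it was 1 with GAAAGTGA, 5 with up to 1 mismatch and 4 in the whole peak, where the promoter pair of *Duox* shares a copy. The share of all reproducible peaks with a copy anywhere in the peak was not computed. Up to 1 mismatch is a loose rule, since 26.2% of reproducible summits had a best match with exactly 1 mismatch and a further 6.31% had none. *Duox* peaks matched in all replicates numbered 4 within 50 bp and 6 within 200 bp, and the shares of all reproducible peaks at these distances were not computed. Leaving out 1 replicate at a time gave 5 to 6 matched *Duox* peaks, a mean rank of 1934 to 2398 for its strongest peak and 18 to 19 listed genes, while the *mol* values did not move. No paired analysis was possible because there is 1 group. The number of replicates and the unknown depth limit how firmly weak peaks can be placed.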

Other observations

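Inside *mol* lies a 7525 bp transposable element of the opus family, at 2L:14984451–14991975. None of the pooled, reproducible or replicate lists had a summit inside it. That is the usual picture in these lists, since 678 of 682 annotated elements of at least 5000 bp (99.4%) had no summit in the pooled list, and whether reads from repeated sequence were kept was not tested. A short INE-1 element, upstream of *mol*, held 1 summit of the pooled list.

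The gene *G6P*, which lies 209 bp beyond the end of *Duox*, held no summit in the pooled list, nor did *CG2964* beyond it. Replicate 1 had a weak summit in a coding exon of *CG2964*, at rank 25290. On the *mol* side, *side-II*, *DCTN5-p25* and *Ankrd49* held none in the pooled list. The share of all protein-coding genes that hold no pooled summit was not computed.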
